A study of Rattus norvegicus with 71 samples.

Results

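Lewis rat pups exposed in utero to ovalbumin, the egg protein used as a model allergen, were compared at postnatal day 14 (PN14) and postnatal day 7 (PN7). The comparison used 8 of the 71 arrays of the study, 4 at PN14 and 4 at PN7, chosen from the sample labels by strain, exposure and age. All 8 came from whole lung of Lewis rats and all 8 carry the exposure, so the step between them describes development under ovalbumin and holds no unexposed animal. Saline arrays of Lewis at PN14 and PN7 (4 each), and ovalbumin arrays of the Fisher and Brown Norway strains at the same ages (4 each), show where the Lewis ovalbumin step differs, and all 71 arrays set the spread used in the tests. Arrays of postnatal day 1 (PN1), of Lewis after ovalbumin and after saline and of Brown Norway after saline (4 each), are set beside these without a test. The labels used here give no dose, litter, sex or animal, so a p-value measures only spread between arrays, which may be technical and is pooled over all groups of the study.

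In the rat most gas exchange surface forms after birth. During this alveolar phase septa grow out from the walls of the air sacs, myofibroblasts lay down elastic fibres and collagen at their tips, capillaries extend into them, and epithelial, mesenchymal and endothelial cells divide and then slow down. Flat alveolar type 1 cells cover most of the surface, cuboidal type 2 cells make surfactant, and the airways are lined by secretory and ciliated cells.

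Gene expression was read on rat bead arrays as fluorescence of labelled cRNA bound to probes, and is given as normalised log2 signal, so that a difference of 1 is a 2-fold change. A change is PN14 minus PN7, with the standard error of a limma fit to all 71 arrays. A probe was called when its Benjamini-Hochberg adjusted p was under 0.05 over the 14019 probes tested. In a whole organ, fewer cells of a type and less RNA per cell cannot be told apart.

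The arrays detected 11217 to 11623 probes at PN14 and 10647 to 11007 at PN7. Within a group they correlated at 0.989 to 0.993 (PN14) and 0.984 to 0.991 (PN7), against 0.951 to 0.971 between the ages. The lung genes Sftpc (surfactant protein C) and Scgb1a1 (club cell secretoglobin) were detected on all 8. All 4 PN14 arrays lay on slide 6, while PN7 replicates a and b lay on slide 4 and c and d on slide 2. No slide therefore holds both ages of this comparison, and slide enters only as a term estimated through the other groups. Slide 6 held only PN14 ovalbumin arrays, and of its groups only Fisher also had an array elsewhere (replicate d, slide 2). The fixed term for slide 6 therefore rests on that Fisher array set against Fisher replicates a to c. The PN7 ovalbumin group stood apart from its own age. Its mean profile differed from Lewis PN7 saline by a root mean square of 0.603 log2 units over the probes tested, and by less from PN14 ovalbumin (0.578), Lewis PN1 ovalbumin (0.506) and Lewis PN1 saline (0.505). Brown Norway PN1 saline lay about as near as the Lewis PN1 groups (0.51). Among the Lewis groups, each PN7 ovalbumin array was nevertheless closest to the other arrays of its own group (0.255 to 0.337). The PN14 ovalbumin group differed from Lewis PN14 saline by 0.176. Between ovalbumin and saline the limma fit called 0 probes at PN14 (348 at an unadjusted p under 0.05) and 4938 at PN7 (35.2%). The labels of the 4 PN7 arrays were taken as given, and whether they are right was not tested, so the age they stand for is in doubt. Their strain and exposure were not checked either. Every change below sets a PN14 group close to its saline counterpart against a PN7 group that is not.

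PN14 minus PN7 called 4442 of the 14019 probes (31.7%), 2225 higher at PN14 (15.9%) and 2217 lower (15.8%). Of these, 617 rose and 439 fell by more than 2-fold. The 4 PN14 arrays lay above all 4 PN7 arrays for 2526 probes (18%) and below all 4 for 2552 (18.2%). Genes of collagen and elastic fibre assembly, DNA replication and mitosis were among those that rose, and genes of cilia, macrophages, neutrophils, detoxification and the glucocorticoid response among those that fell.

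Several of the largest rises were of matrix genes. Col15a1, the chain of a basement membrane collagen, had 10.60, 10.40, 10.65 and 10.61 on the PN14 arrays, against 6.17, 7.39, 5.59 and 6.77 on the PN7 arrays, and rose by 4.08 ± 0.29 (adjusted p = 1.2e-16). Mfap4, a microfibril-associated protein of elastic fibres, had 14.13, 14.23, 14.12 and 14.51 at PN14, against 11.09, 12.38, 10.35 and 11.23 at PN7 (2.98 ± 0.26, adjusted p = 5.4e-14). The groups did not overlap for either gene, the PN14 arrays lay within a narrow range and PN7 replicate c was the lowest array of both. The proteoglycan lumican (Lum) rose by 3.42 ± 0.35 and the matrix crosslinking enzyme Loxl2 by 3.08 ± 0.25. Pclaf, a partner of the replication clamp, rose by 3.07 ± 0.48, and Slc7a10, a transporter of small neutral amino acids, by 4.05 ± 0.30. Nrep (2.95 ± 0.31) and the neuronal-type membrane protein Slitrk6 (2.83 ± 0.25) also had PN14 arrays that lay above all PN7 arrays, as did the secretoglobin Scgb1c1 (3.42 ± 0.33).

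Some of the largest rises came from probes that were not well above background on any PN7 array, for which a fold is a lower bound. Nell1, a secreted growth regulator, was at least 16.9-fold higher at PN14 (adjusted p = 6.71e-12), with 9.93, 9.96, 10.05 and 9.65 on the PN14 arrays. The adhesion molecule Opcml was at least 5.75-fold higher (adjusted p = 2.48e-09) and the tight junction protein Cldn11 at least 4.24-fold (adjusted p = 1.5e-16). Thrsp, a regulator of lipid synthesis, was at least 5.50-fold higher (adjusted p = 9.5e-05), with widely spread PN14 arrays at 9.88, 8.56, 5.96 and 8.72. Ucp1, which lets brown fat mitochondria release heat, had the largest rise of the named genes and the widest PN14 group, with 12.35, 10.59, 7.99 and 11.11 at PN14 against 5.18, 4.88, 6.09 and 4.89 at PN7 (Ucp1 change 5.25 ± 1.42, adjusted p = 0.00293). Pck1, an enzyme of glucose and glycerol synthesis, had 9.61, 7.92, 6.73 and 8.39 at PN14 against 5.78, 6.97, 5.64 and 6.38 at PN7 (1.97 ± 0.68, adjusted p = 0.0208). Its groups overlapped, and its call was lost without PN7 replicate a or c or PN14 replicate a and with the PN7 arrays of either slide alone. PN14 replicate a was the highest and PN14 replicate c the lowest of the PN14 arrays for all 3 genes. Of the 17 measured genes of adipose tissue and lipid storage 3 rose and 2 fell, near the 15.9% and 15.8% of all probes tested. Their summed signal ran from 14.71 to 15.24 at PN14 and from 14.99 to 15.12 at PN7. Adipoq, a hormone of fat cells, had a change of 0.91 ± 0.42 and the fat cell lipid carrier Fabp4 of 0.07 ± 0.53, neither called. The part of fat tissue in these rises was not tested. Slide as a fixed term ended the calls of Ucp1, Thrsp, Pck1, Car3 (carbonic anhydrase 3, 3.36 ± 0.69) and Bpifa1 (3.12 ± 0.65), and the adipose list then had 0 higher and 3 lower.

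**Figure D1:**
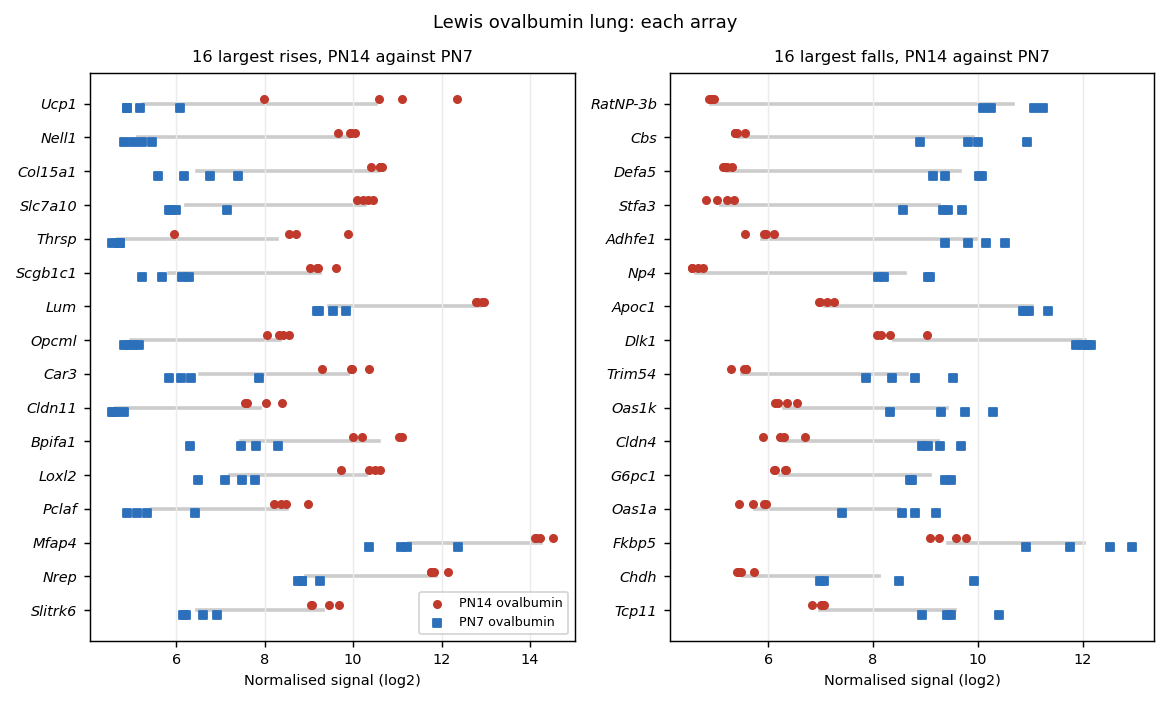
Normalised log2 signal (x axis) of each array for the 16 genes with the largest rise (left) and the 16 with the largest fall (right) from PN7 to PN14 in Lewis ovalbumin lung, with PN14 arrays as circles above PN7 arrays as squares and a grey bar between the 2 means. No PN14 array overlaps a PN7 array in any row, which the naming rule required, and Ucp1 has the widest PN14 group (7.99 to 12.35).

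Defensins and metabolic enzymes led the falls. RatNP-3b, a neutrophil defensin, had 10.10, 10.25, 11.25 and 11.08 on the PN7 arrays and was not well above background on any PN14 array, at least 32.4-fold lower (adjusted p = 3.51e-12). Defa5, a related defensin, was at least 16-fold lower, and Np4 at least 7.76-fold. These 3 belong to a family of similar sequences, and nothing in the files tells how far their probes bind each other's transcripts. The stefin Stfa3, a cysteine protease inhibitor of myeloid cells, was at least 12.2-fold lower (adjusted p = 0.000215), but with slide as a fixed term its change was 0.18 (adjusted p = 0.943). The cause of that reversal was not tested.

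Cbs, the enzyme that joins homocysteine and serine, had 10, 8.89, 10.94 and 9.82 at PN7 and was not well above background on any PN14 array, at least 19.2-fold lower (adjusted p = 9.57e-12). Adhfe1, a mitochondrial dehydrogenase, fell by 4.08 ± 0.35, with 5.55, 5.95, 5.92 and 6.10 at PN14 against 10.15, 9.37, 10.51 and 9.81 at PN7. Replicate c was the highest PN7 array and replicate b the lowest for both enzymes. The same order of c above b held for the choline dehydrogenase Chdh (-2.59 ± 0.42), Tcp11 (-2.57 ± 0.30) and the muscle protein Trim54, which was at least 7.95-fold lower. The apolipoprotein Apoc1 fell by 3.94 ± 0.61 and had tight groups, with 6.96, 7.26, 6.99 and 7.13 at PN14 against 10.92, 10.87, 10.97 and 11.34 at PN7. The claudin Cldn4 (-2.94 ± 0.34) and G6pc1, the last enzyme of glucose release (-2.86 ± 0.25), fell too. Oas1k, of the family of antiviral oligoadenylate synthetases, fell by 3.12 ± 0.36.

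Cell cycle genes rose. Of 21 measured genes of DNA replication 14 were called higher and 0 lower at PN14, with a median change of 0.81, and of 19 measured genes of mitosis and the spindle 13 were called higher and 0 lower, with a median of 1.30. Over all probes tested 15.9% were higher and the median change was -0.01. The mitotic cyclin Ccna2 had 8.26, 8.51, 9.16 and 8.56 at PN14 against 6.36, 5.65, 7.12 and 6.88 at PN7 (2.12 ± 0.44, adjusted p = 0.000127). Cdk1, its partner kinase, had 10.82, 10.93, 11.46 and 10.89 at PN14 against 9.39, 9.15, 9.78 and 9.38 at PN7 (1.60 ± 0.33). Replicate c was the highest array of both groups for both genes, and the groups did not overlap. Ube2c, the ubiquitin carrier that ends mitosis, rose by 1.48 ± 0.24, the motor Kif11 by 2.03 ± 0.42 and the ribonucleotide reductase subunit Rrm2 by 2.12 ± 0.36. A second probe of Kif11 had 0.49 ± 0.29 (adjusted p = 0.203). The checkpoint kinase Bub1b was at least 2.80-fold higher.

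Among the replication genes Gins1, a subunit of the replicative helicase, rose by 2.01 ± 0.31, and the other helicase subunits Mcm2, Mcm3 and Mcm4 by 1.01 ± 0.20, 1.72 ± 0.37 and 1.03 ± 0.22. The summed signal of the mitosis list ran from 13.12 to 13.72 on the PN14 arrays and from 12.07 to 12.72 on the PN7 arrays, and that of the replication list from 13.97 to 14.31 and from 13.46 to 13.59 at the same ages. With slide as a fixed term, 8 replication and 7 mitosis genes were called higher and 0 lower, and Mcm3 was not called. With the PN7 arrays of slide 4 alone the counts were 14 and 12, and with those of slide 2 alone 12 and 9.

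RefSeq promoters (assembly GRCr8, 250 bases before to 50 after the start site) are shown for a pair of mitosis genes and a pair of replication genes, since these lists moved together. In the mitosis genes the capitals mark the cell cycle homology region TTTGAA and the CCAAT box, and in the replication genes an E2F site, searched as TTTGGCGC or TTTCCCGC, and the CCAAT box, all on either strand. Cdk1 lies at chr20:19265043-19265342 and Nusap1, a spindle protein (1.73 ± 0.43, chosen after its value was seen), at chr3:127057045-127057344, both on the plus strand. Gins1 lies at chr3:160184670-160184969 on the plus strand and Mcm3 at chr9:30733697-30733996 on the minus strand.
Cdk1: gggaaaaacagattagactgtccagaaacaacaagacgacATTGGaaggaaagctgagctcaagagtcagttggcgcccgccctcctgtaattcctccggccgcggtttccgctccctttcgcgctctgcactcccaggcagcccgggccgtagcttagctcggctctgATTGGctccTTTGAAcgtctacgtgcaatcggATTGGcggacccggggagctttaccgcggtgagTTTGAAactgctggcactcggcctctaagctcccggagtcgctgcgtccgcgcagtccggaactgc
Nusap1: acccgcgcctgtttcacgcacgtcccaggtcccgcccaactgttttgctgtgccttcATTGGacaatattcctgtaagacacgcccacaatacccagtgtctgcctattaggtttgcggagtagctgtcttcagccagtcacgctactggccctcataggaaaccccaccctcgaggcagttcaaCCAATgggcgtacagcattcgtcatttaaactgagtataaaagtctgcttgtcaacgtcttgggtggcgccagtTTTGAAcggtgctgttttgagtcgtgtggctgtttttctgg
Gins1: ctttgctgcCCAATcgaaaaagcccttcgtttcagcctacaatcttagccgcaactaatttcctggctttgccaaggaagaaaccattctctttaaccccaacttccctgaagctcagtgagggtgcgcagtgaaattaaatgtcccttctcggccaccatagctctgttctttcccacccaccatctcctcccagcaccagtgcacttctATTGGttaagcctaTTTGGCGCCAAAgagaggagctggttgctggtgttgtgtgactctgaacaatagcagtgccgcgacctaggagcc
Mcm3: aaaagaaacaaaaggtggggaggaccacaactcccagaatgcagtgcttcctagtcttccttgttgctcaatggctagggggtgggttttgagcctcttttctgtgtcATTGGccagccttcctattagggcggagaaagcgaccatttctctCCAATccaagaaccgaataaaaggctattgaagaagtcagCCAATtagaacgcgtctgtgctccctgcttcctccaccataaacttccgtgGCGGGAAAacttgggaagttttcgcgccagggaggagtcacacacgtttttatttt

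In Cdk1 the cell cycle homology region stands at bases -72 to -67 and -16 to -11 from the start site, and in Nusap1 at 9 to 14. The E2F letters of Gins1 read on both strands in overlapping matches, from -25 to -18 and from -21 to -14, and those of Mcm3 span -6 to 1. Of the 15 measured mitosis genes whose promoter the table gives, 9 held TTTGAA and 11 held CCAAT, against 18.3% and 37.5% of all 33469 promoters. Of the 17 replication genes with a promoter, 9 held an E2F site, against 1.45% of all promoters, and 1 held TTTGAA. A match is a run of letters and says nothing of binding in these lungs.

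Collagen and elastic fibre genes rose together. Of 17 measured collagen and matrix genes 15 were called higher and 0 lower (median 1.10), and of 14 genes of elastic fibre assembly 13 were higher and 1 lower (median 1.16). The counts with slide as a fixed term were 14 and 10 higher and 0 lower. Elastin (Eln), the core of the elastic fibre, had 15.27, 14.85, 14.98 and 15.34 at PN14 against 13.78, 14.11, 13.47 and 13.89 at PN7 (1.30 ± 0.21, adjusted p = 9.38e-07). Fbln5, the fibulin that helps elastin onto microfibrils, had 12.83, 13.00, 12.94 and 12.98 at PN14 against 10.94, 11.19, 10.73 and 11.01 at PN7 (1.97 ± 0.18). Every PN14 array lay above every PN7 array for both. The microfibril protein Fbn1 rose by 1.52 ± 0.18 and Ltbp2, which binds latent growth factor complexes, by 1.40 ± 0.18. The 1 member that fell was the crosslinking enzyme Lox (-0.70 ± 0.17), named after its value was seen because it was the single exception, and its relative Loxl2 rose. Among the collagens Col3a1 rose by 1.82 ± 0.17 and Col1a2 by 1.11 ± 0.11, and the proteoglycan biglycan (Bgn) by 1.98 ± 0.15. The summed matrix signal ran from 17.54 to 17.70 at PN14 and from 16.47 to 16.68 at PN7.

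Contractile genes of smooth muscle and myofibroblasts had 7 of 11 members higher and 1 lower (median 0.57), or 3 and 0 with slide as a fixed term. Tagln, an actin-binding protein of smooth muscle, had 12.20, 12.38, 12.41 and 12.45 at PN14 against 11, 11.15, 10.69 and 11.20 at PN7 (1.35 ± 0.19). The smooth muscle actin Actg2 rose by 1.07 ± 0.21 and calponin (Cnn1) by 1.17 ± 0.24, and both lost their call with slide as a fixed term (0.13 and 1.13).

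**Figure D2:**
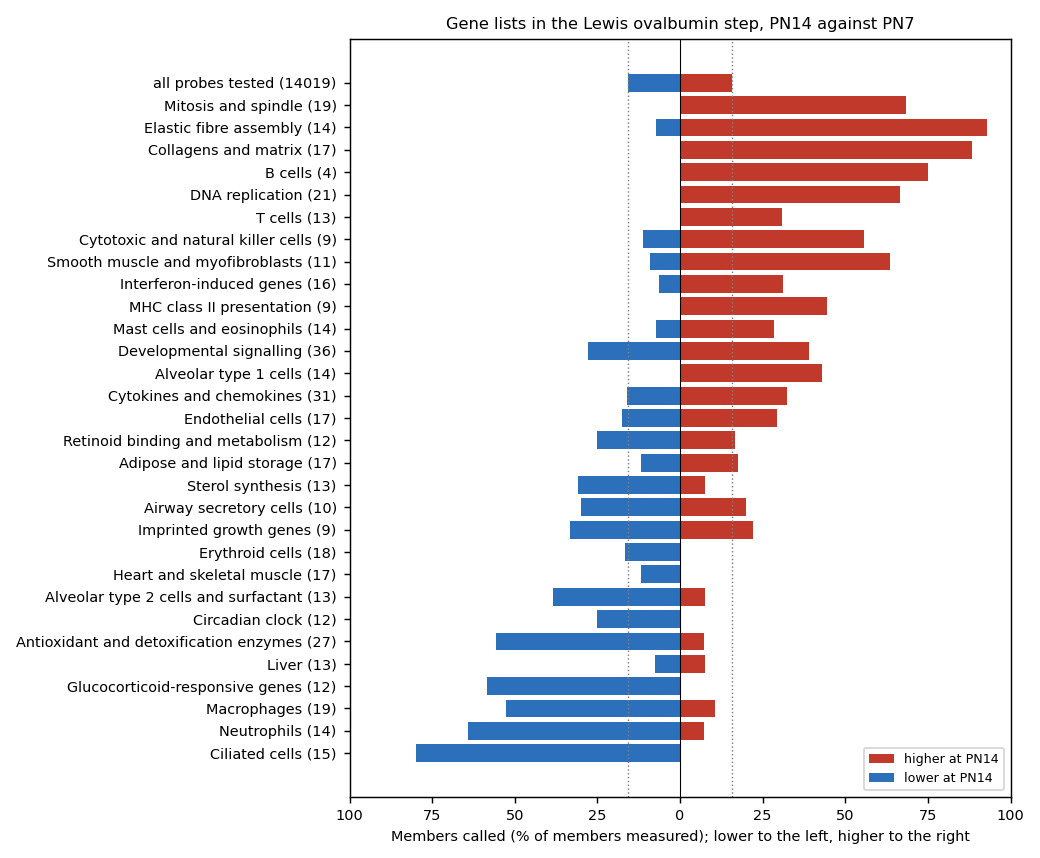
Share of the measured members of each gene list that was called higher (red, right) or lower (blue, left) at PN14 than at PN7 in Lewis ovalbumin lung (x axis, percent of members), ordered by median change, with the number of members in brackets and all probes tested in the top row and as dotted lines. Mitosis and spindle (13 of 19 higher) and ciliated cells (12 of 15 lower) lie at the ends of that order.

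Of the epithelial lists that of alveolar type 1 cells had only rises among its calls. Of 14 measured alveolar type 1 genes 6 were higher and 0 lower (median 0.22). Akap5, an anchoring protein of protein kinase A, rose by 1.59 ± 0.25, the growth factor gene Vegfa by 1.25 ± 0.21, and the chloride channel protein Clic5 by 0.85 ± 0.15. The water channel Aqp5 (0.99 ± 0.25) and the receptor Ager (0.57 ± 0.16), each a classical type 1 marker, had PN14 arrays that lay above all PN7 arrays. Hopx, a homeodomain protein of these cells, was at 14.81, 14.80, 14.58 and 14.77 at PN14 against 14.78, 14.50, 15.17 and 14.91 at PN7 (-0.10 ± 0.13, adjusted p = 0.617). The signal of Hopx therefore overlapped between the ages, and its sign turned without PN7 replicate c (0.01) and with the PN7 arrays of slide 4 alone (0.10). Aqp5 lost its call with slide as a fixed term, and Ager with the PN7 arrays of slide 4 alone.

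Of 13 alveolar type 2 and surfactant genes 1 was higher and 5 lower (median -0.38). Surfactant protein B (Sftpb) had 14.39, 13.98, 13.90 and 14.15 at PN14 against 14.90, 14.90, 14.98 and 15.02 at PN7 (-0.84 ± 0.15, adjusted p = 5.19e-06). Surfactant protein D (Sftpd) fell by 0.96 ± 0.19, the phosphate transporter Slc34a2 by 1.00 ± 0.17, the surfactant-processing protease Napsa by 0.65 ± 0.16 and Lpcat1, an enzyme of surfactant lipid, by 0.50 ± 0.13. Surfactant protein C (Sftpc) had 14.92, 14.76, 14.51 and 14.61 at PN14 against 14.76, 14.91, 14.54 and 15.08 at PN7, and the groups overlapped (-0.12 ± 0.12, adjusted p = 0.458). Slc34a2 lost its call with slide as a fixed term.

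Ciliated cell genes fell, with 12 of 15 lower and 0 higher (median -0.95), or 13 and 0 with a fixed slide term. Rsph9, of the radial spoke of the ciliary axoneme, had 8.24, 8.15, 8.17 and 8.13 at PN14 against 9.69, 9.36, 9.53 and 9.54 at PN7 (-1.35 ± 0.16, adjusted p = 8.16e-10). Rsph1 of the same structure fell by 1.07 ± 0.18, the dynein light chain Dynlrb2 by 1.05 ± 0.15, Lrrc23 by 0.95 ± 0.13 and tektin 1 (Tekt1) by 0.88 ± 0.13. None of these 5 had overlapping groups.

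Airway secretory genes went both ways, with 2 of 10 higher and 3 lower. The higher count lay near the 15.9% of all probes tested, of which 15.8% were lower. Cyp2f4, a cytochrome P450 of club cells, had 10, 9.82, 9.81 and 9.68 at PN14 against 11.39, 10.97, 11.67 and 10.83 at PN7 (-1.39 ± 0.18). Cyp4b1, another airway P450, fell by 1.04 ± 0.17 and the retinal dehydrogenase Aldh1a1 by 0.57 ± 0.14. Bpifa1, a secreted protein of the upper airway epithelium, had 11.04, 11.10, 10.21 and 10 at PN14 against 7.81, 6.31, 8.30 and 7.46 at PN7, and Pigr, which carries immunoglobulin A across epithelium, rose by 1.17 ± 0.26. The club cell marker Scgb1a1 was at 15.67, 15.43, 15.60 and 15.54 at PN14 against 15.64, 15.60, 15.57 and 15.60 at PN7 (-0.04 ± 0.07, adjusted p = 0.706). Its groups overlapped, while those of the P450 enzymes did not.

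Endothelial genes went both ways, with 5 of 17 higher and 3 lower (median 0.17). Over all probes tested 15.9% were higher and 15.8% lower, so the lower count lay near the general share. Apelin (Apln), a peptide of growing capillaries, had 11.63, 11.34, 11.35 and 11.54 at PN14 against 9.32, 9.76, 8.50 and 9.33 at PN7 (2.24 ± 0.23, adjusted p = 1.34e-11), and its receptor Aplnr rose by 0.81 ± 0.17. The capillary carbonic anhydrase Car4 rose by 1.45 ± 0.18 and the sialomucin Emcn by 0.93 ± 0.14. The angiopoietin receptor Tek fell by 0.76 ± 0.14, and Esm1, a proteoglycan of endothelial tip cells, had 7.50, 8.29, 8.30 and 7.98 at PN14 against 9.71, 9.66, 9.93 and 9.89 at PN7 (-1.78 ± 0.43). Von Willebrand factor (Vwf) had 0.50 ± 0.19 (adjusted p = 0.0346), and its call was lost with slide as a random block and without any one of PN7 replicates a, c and d or PN14 replicates a, b and c. With slide as a fixed term Tek, Aplnr and Vwf were not called, and the list's counts were 5 higher and 0 lower.

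Developmental signalling genes had 14 of 36 higher and 10 lower (median 0.25), or 15 and 4 with slide as a fixed term. With the PN7 arrays of slide 2 alone the counts were 14 and 6, and with those of slide 4 alone 11 and 9. Over all probes tested 15.9% were higher and 15.8% lower. The Wnt antagonist Sfrp2 had 9.51, 9.67, 9.61 and 9.52 at PN14 against 6.48, 7.08, 6.80 and 7.08 at PN7 (2.72 ± 0.26, adjusted p = 1.67e-12). The ligand Wnt5a rose by 2.07 ± 0.25, the fibroblast growth factor receptor Fgfr4 by 1.64 ± 0.23 and Smad6, an inhibitor of bone morphogenetic protein signals, by 1.08 ± 0.15. The growth factor receptor Igf1r fell by 1.36 ± 0.17. A list of imprinted and other growth genes had 2 of 9 higher and 3 lower. Dlk1, a fetal growth regulator, had 9.02, 8.15, 8.08 and 8.32 at PN14 against 12.10, 11.88, 12.16 and 12.01 at PN7 (-3.64 ± 0.58, adjusted p = 1.2e-06). Insulin-like growth factor 2 (Igf2) fell by 1.74 ± 0.27 and the cell cycle inhibitor Cdkn1c by 0.81 ± 0.17, while the growth suppressors Gpc3 and Ndn rose by 1.04 ± 0.10 and 1.15 ± 0.16.

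Most of the macrophage and neutrophil genes called fell. Of 19 macrophage genes 10 were lower and 2 higher (median -0.73). The scavenger receptor Cd163 had 4.84, 5.37, 5.4 and 5.96 at PN14, where it was above background on 1 array, against 6.77, 6.81, 7.20 and 6.83 at PN7 (-1.51 ± 0.23). The lipopolysaccharide receptor Cd14 fell by 1.14 ± 0.16, the complement chain C1qb by 1.15 ± 0.18, the lectin Lgals3 by 0.98 ± 0.16 and the mannose receptor Mrc1 by 0.90 ± 0.14. Not all members fell. Alox15, of the same list, had 13.14, 12.75, 13.34 and 13.17 at PN14 against 11.35, 13.44, 11.99 and 11.67 at PN7. Lgals5 had 10.96, 10.97, 11.55 and 11.16 against 9.90, 11.72, 10.59 and 10.16. PN7 replicate b was the highest array for both, so their groups overlapped. The summed macrophage signal ran from 14.79 to 15 at PN14 and from 15.36 to 15.67 at PN7. Of 14 neutrophil genes 9 were lower and 1 higher (median -0.80), or 5 and 0 with slide as a fixed term, and besides the defensins the integrin Itgam fell (-0.80 ± 0.17). The summed neutrophil signal ran from 11.78 to 11.85 at PN14 and from 12.85 to 13.44 at PN7.

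Most of the lymphocyte genes called were higher at PN14, and many of those calls depended on the settings. Of 13 T cell genes 4 were called higher and 0 lower (median 0.72), and 11 had PN14 arrays all above the PN7 arrays. The count was 10 with only the groups compared in the fit, also with the replicate block, and 1 with slide as a fixed term. Cd3g, of the T cell receptor complex, had 8.81, 9.01, 8.65 and 9.02 at PN14 against 7.12, 7.70, 6.28 and 7.46 at PN7 (1.74 ± 0.54, adjusted p = 0.0102). Cd247 of the same complex was at least 2.69-fold higher, the co-receptor Cd8a rose by 2.02 ± 0.55 and the homing receptor Ccr7 by 0.45 ± 0.14. Of 4 B cell genes 3 were higher, with 0.90 ± 0.22 for Cd79b, 0.83 ± 0.17 for Cd37 and 0.92 ± 0.35 for Ms4a1, the last with overlapping groups. Of 9 cytotoxic and natural killer genes 5 were higher and 1 lower. The lower one was the receptor Klrk1, with 5.47, 5.37, 5.88 and 5.51 at PN14 against 6.13, 5.71, 6.42 and 6.08 at PN7, and overlapping groups. The receptor Klrd1 was at least 1.62-fold higher, Nkg7 rose by 1.32 ± 0.27 and perforin (Prf1) by 1.41 ± 0.31. With slide as a fixed term Cd3g, Cd247, Cd8a, Ccr7, Cd79b, Ms4a1 and Prf1 were not called. Without PN7 replicate c the call of Cd3g was lost (adjusted p = 0.0573), and without PN14 replicate a that of Ccr7 (adjusted p = 0.108). On the authors' deposited values Cd8a had 1.08 (adjusted p = 0.0522) and Ms4a1 0.41 (adjusted p = 0.0778), neither called. Ms4a1 lost its call without PN7 replicate a or c and without PN14 replicate a, b or c. The summed T cell signal ran from 10.99 to 11.36 at PN14 and from 9.95 to 10.47 at PN7.

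Of 9 genes of MHC class II presentation 4 were higher and 0 lower, the chains RT1-Db1 (1.18 ± 0.25), RT1-Ba (0.92 ± 0.24) and RT1-Da (0.87 ± 0.20) and the invariant chain Cd74 (0.98 ± 0.23). Cd74 had 11.26, 10.91, 10.92 and 10.98 at PN14 against 10.29, 10.74, 9.36 and 9.78 at PN7. The PN7 arrays of slide 2 (c and d) were lower than those of slide 4 (a and b) for all 4 genes, and with the slide 4 arrays alone 0 of the 9 were called. Slide as a fixed term gave 2 higher and 1 lower, and RT1-Db1 (adjusted p = 0.0761) and Cd74 (adjusted p = 0.137) were then not called. Interferon-induced genes had 5 of 16 higher and 1 lower (median 0.44), but 1 and 1 without PN7 replicate c, 2 and 1 with a fixed slide term, and 8 higher with only the groups compared. The GTPase Gbp2 had 9.95, 10, 9.97 and 10.12 at PN14 against 8.61, 8.84, 8.22 and 8.74 at PN7 (1.41 ± 0.21, adjusted p = 3.96e-07), and the immunoproteasome subunit Psmb9 rose by 0.91 ± 0.28. Oas1a, an antiviral oligoadenylate synthetase, went the other way, with 5.44, 5.91, 5.70 and 5.96 at PN14 against 8.80, 7.4, 9.20 and 8.56 at PN7 (-2.74 ± 0.29, adjusted p = 2.27e-11). Psmb9 lost its call without PN7 replicate c and with a fixed slide term.

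The promoters of Oas1a (chr12:41330216-41330515, plus strand) and Gbp2 (chr2:234005477-234005776, plus strand), the genes of the fixed interferon-induced list with the largest fall and the largest rise, are shown with matches of the interferon-stimulated response element, searched as GAAANNGAAA on both strands, in capitals.
Oas1a: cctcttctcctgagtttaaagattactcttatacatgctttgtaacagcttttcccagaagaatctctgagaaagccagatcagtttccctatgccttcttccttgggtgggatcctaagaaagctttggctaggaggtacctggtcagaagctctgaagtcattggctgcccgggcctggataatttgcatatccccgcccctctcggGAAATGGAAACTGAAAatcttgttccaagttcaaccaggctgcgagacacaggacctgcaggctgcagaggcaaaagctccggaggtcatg
Gbp2: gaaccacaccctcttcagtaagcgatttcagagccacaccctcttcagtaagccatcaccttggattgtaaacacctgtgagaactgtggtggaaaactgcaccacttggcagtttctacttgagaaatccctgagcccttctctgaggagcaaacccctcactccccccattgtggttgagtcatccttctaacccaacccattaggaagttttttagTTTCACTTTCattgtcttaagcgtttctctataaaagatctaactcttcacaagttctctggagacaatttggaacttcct

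Oas1a held overlapping matches from -41 to -32 and from -35 to -26 from the start site, and Gbp2 a match on the other strand from -31 to -22. The element was found in 8 of the 13 measured interferon-induced genes with a promoter in the table and in 3.92% of all promoters.

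Of 14 mast cell and eosinophil genes 4 were higher and 1 lower (median 0.40), or 2 and 1 with a fixed slide term. The protease Mcpt10 had 7.52, 7.85, 7.59 and 7.57 at PN14 and was not well above background on any PN7 array, at least 3.52-fold higher (adjusted p = 1.12e-11). Mcpt1 was at least 1.16-fold higher, the carboxypeptidase Cpa3 rose by 1.51 ± 0.25 and the chymase Cma1 by 1.31 ± 0.31. Hdc, which makes histamine, had 7.74, 7.93, 7.88 and 7.80 at PN14 against 9.20, 9.01, 8.83 and 8.93 at PN7 (-1.16 ± 0.18). Mcpt1, Cpa3 and Cma1 lost their call with slide as a fixed term.

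Of 31 cytokine and chemokine genes 10 were higher and 5 lower (median 0.20). Cxcl13, which attracts B cells, had 9.35, 9.26, 9.63 and 9.40 at PN14 against 7.58, 7.94, 7.33 and 7.30 at PN7 (1.88 ± 0.17, adjusted p = 1.81e-13). Cxcl12, a homing signal made by stroma, rose by 2.04 ± 0.17, the alarmin Il33 by 1.41 ± 0.18, and the eosinophil attractant Ccl11 was at least 3.07-fold higher. The membrane-bound chemokine Cx3cl1 fell by 2.08 ± 0.21. Cxcl1, which attracts neutrophils, had 8.73, 9.04, 8.42 and 8.64 at PN14 against 11.41, 11.50, 10.82 and 10.77 at PN7 (-2.42 ± 0.36).

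Glucocorticoid-responsive genes had 7 of 12 lower and 0 higher (median -0.70). Fkbp5, an immunophilin bound to steroid receptors, had 9.09, 9.77, 9.59 and 9.26 at PN14 against 12.53, 10.91, 12.95 and 11.75 at PN7 (-2.61 ± 0.39, adjusted p = 2.2e-07). Errfi1, an inhibitor of growth factor receptors, fell by 1.54 ± 0.27, and Pdk4, which restrains glucose oxidation, by 1.40 ± 0.36. Replicate c was the highest PN7 array for all 3, and without it the list had 6 lower. With the PN7 arrays of slide 4 alone the list had 3 lower, and Pdk4 was not called. The list had 4 lower once slide was a fixed term. Clock genes had 3 of 12 lower and 0 higher (1 lower with slide as a fixed term, 6 with only the groups compared). Bmal1, the central activator of the clock, had 6.73, 6.59, 6.91 and 6.70 at PN14 against 8.38, 7.85, 8.83 and 8.02 at PN7 (-1.54 ± 0.18), and its relative Npas2 (-0.72 ± 0.17) and the repressor Per1 (-1.20 ± 0.40), also a glucocorticoid target, fell. Npas2 and Per1 lost their call with slide as a fixed term, and Per1 also without PN14 replicate b (adjusted p = 0.0533). The labels used here give no hour of collection.

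Antioxidant and detoxification enzymes had 15 of 27 lower and 2 higher (median -0.45), 14 and 2 with a fixed slide term. The quinone reductase Nqo1 had 11.03, 10.98, 11.15 and 10.76 at PN14 against 12.73, 12.60, 12.86 and 12.76 at PN7 (-1.76 ± 0.18, adjusted p = 1.5e-11). The glutathione transferases Gstm1 and Gstm2 fell by 1.29 ± 0.16 and 1.15 ± 0.19 and the alcohol dehydrogenase Adh1c by 1.06 ± 0.19. The extracellular superoxide dismutase Sod3 rose by 1.87 ± 0.23. Retinoid genes went both ways (2 of 12 higher, 3 lower), the higher count near the 15.9% of all probes tested, of which 15.8% were lower. Aldh1a2, which makes retinoic acid, rose by 1.41 ± 0.20, and the retinoic acid binding proteins moved apart, Crabp1 by 1.67 ± 0.38 and Crabp2 by -0.73 ± 0.24, neither called with slide as a fixed term. Crabp2 was also lost without PN7 replicate c and without PN7 replicate d. Sterol synthesis had 1 of 13 higher and 4 lower, with -0.63 ± 0.19 for squalene epoxidase (Sqle), which lost its call with slide as a fixed term.

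Genes of tissues outside the lung were checked because whole lung can carry blood and neighbouring tissue. Hba-a1 and Alb below, like Adipoq and Fabp4 above, were picked after their values were seen, as defining markers. Over all probes tested 15.9% were higher and 15.8% lower, and in the fit to all arrays the counts of the lists below lay near or under these shares. Erythroid genes had 3 of 18 lower and 0 higher, with -1.76 ± 0.36 for Hemgn and -1.09 ± 0.34 for the haemoglobin chaperone Ahsp, whose groups overlapped and whose call was lost with slide as a fixed term. The globin Hba-a1 had -0.01 ± 0.07, and the summed erythroid signal ran from 17.04 to 17.21 at PN14 and from 17.03 to 17.44 at PN7. Heart and skeletal muscle genes had 2 of 17 lower, the cardiac troponins Tnnt2 (-1.70 ± 0.40) and Tnni3 (-1.36 ± 0.38), or 6 lower and 2 higher with only the groups compared, with a summed signal from 13.35 to 14.12 at PN14 and from 14.27 to 14.76 at PN7. Liver genes had 1 of 13 higher (Vtn, vitronectin, 0.93 ± 0.27) and 1 lower (Fgg, a fibrinogen chain, -0.93 ± 0.26), with a summed signal from 12.37 to 12.72 at PN14 and from 12.79 to 13.51 at PN7, and albumin (Alb) had -0.83 ± 1.12. All 4 PN14 arrays were below the PN7 arrays in muscle and liver signal, and the part of such tissue in the other changes was not tested. Vtn lost its call with slide as a fixed term and Fgg with the PN7 arrays of slide 2 alone.

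Whether the step differs from that of unexposed Lewis lung was asked by the difference between the steps, which has no array in common to both steps. The ovalbumin step minus the saline step called 2552 probes (18.2%), 1310 positive (9.34%) and 1242 negative (8.86%). The saline step itself called 824 probes higher (5.88%) and 719 lower (5.13%). Of the 4442 probes called after ovalbumin, 504 (11.3%) were also called in the same direction after saline, 180 (4.05%) in the opposite direction, and 1994 (44.9%) had a called difference. Of the saline calls the same 504 were 32.7% and the 180 were 11.7%. Across all probes tested, which are not independent, the 2 steps correlated at 0.27 (Pearson). Lewis PN7 saline replicates a and b differed by a root mean square of 0.273, while c and d differed from them by 0.530 to 0.643 and from each other by 0.664. Without each Lewis saline array of these ages in turn the count ran from 2073 to 2785. On the Lewis PN7 saline arrays the summed liver signal ran from 12.16 to 15.08, against 12.79 to 13.51 on the PN7 ovalbumin arrays. Their heart and skeletal muscle signal ran from 14.06 to 15.61, against 14.27 to 14.76. The part of such tissue in the differences between the steps was not tested.

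**Figure D3:**
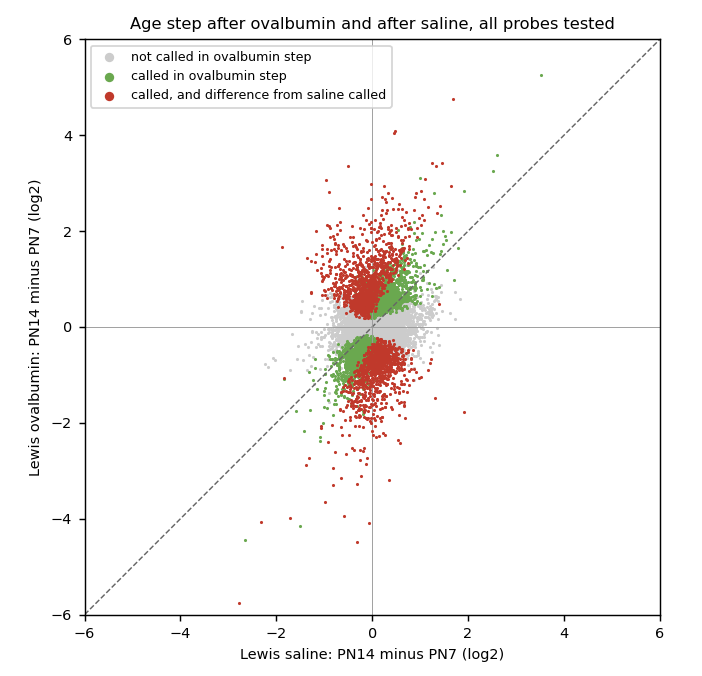
PN14 minus PN7 change (log2) of every probe tested in Lewis ovalbumin lung (y axis) against the same change in Lewis saline lung (x axis), with the dashed line marking equal changes. Probes were coloured by their call in the ovalbumin step, which fixes their spread along the y axis, and those with a called difference (red) lie away from the dashed line.

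The cell cycle lists differed between the steps. For 19 of 21 replication genes and 16 of 19 mitosis genes the difference was called and positive, and for 0 negative. After saline 13 replication genes and 7 mitosis genes fell and 0 rose, with medians of -0.74 and -0.76. Ccna2 averaged 8.62 ± 0.38 at PN14 and 6.50 ± 0.65 at PN7 after ovalbumin (SD, n = 4 each), against 9.04 at PN14 and 9.94 at PN7 after saline, a difference of 3.02 ± 0.63 between the steps (adjusted p = 0.000324). The positive differences named were those of Pclaf (4.03 ± 0.67), Car3 (3.87 ± 0.97), the mitotic kinase Pbk (3.73 ± 0.68), Col15a1 (3.60 ± 0.41), Slc7a10 (3.60 ± 0.43) and Crabp1 (3.55 ± 0.53). Pclaf, Car3, Pbk and Crabp1 had changes of opposite sign after saline, of which that of Crabp1 was called (-1.88 ± 0.38). Without any 1 of the Lewis saline arrays the difference was called and positive for at least 18 replication and 15 mitosis genes.

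At PN14 the ovalbumin and saline values of these genes lay closer together than at PN7. Mfap4 averaged 11.27 at PN7 after ovalbumin, against 14.12 after saline, and 14.25 at PN14 after ovalbumin, against 14.09 after saline. Cbs averaged 9.91 at PN7 after ovalbumin, against 5.76 after saline. Differences were positive for 11 of 17 collagen and matrix genes and 0 were negative, and elastin was not among the genes that differed (0.20 ± 0.29, adjusted p = 0.704), having risen by 1.09 ± 0.21 after saline too. Negative differences named by the same rule were those of Cbs (-4.17 ± 0.65), Adhfe1 (-4.01 ± 0.49), Esm1 (-3.69 ± 0.61), Apoc1 (-3.36 ± 0.86), Cxcl1 (-3 ± 0.51) and RatNP-3b (-2.98 ± 0.80). The values of Pbk, Cbs and RatNP-3b are fitted differences that rest on a Lewis ovalbumin group with no array above background, so their sizes have no firm order. Esm1 rose after saline (1.91 ± 0.43). The glucocorticoid list had 6 of 12 negative and 0 positive differences, the clock list 5 of 12, and the detoxification list 9 of 27 with 4 positive. The differences of Car3, Crabp1 and Esm1 were not called once slide was a fixed term, and the count over all probes was then 1564.

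**Figure D4:**
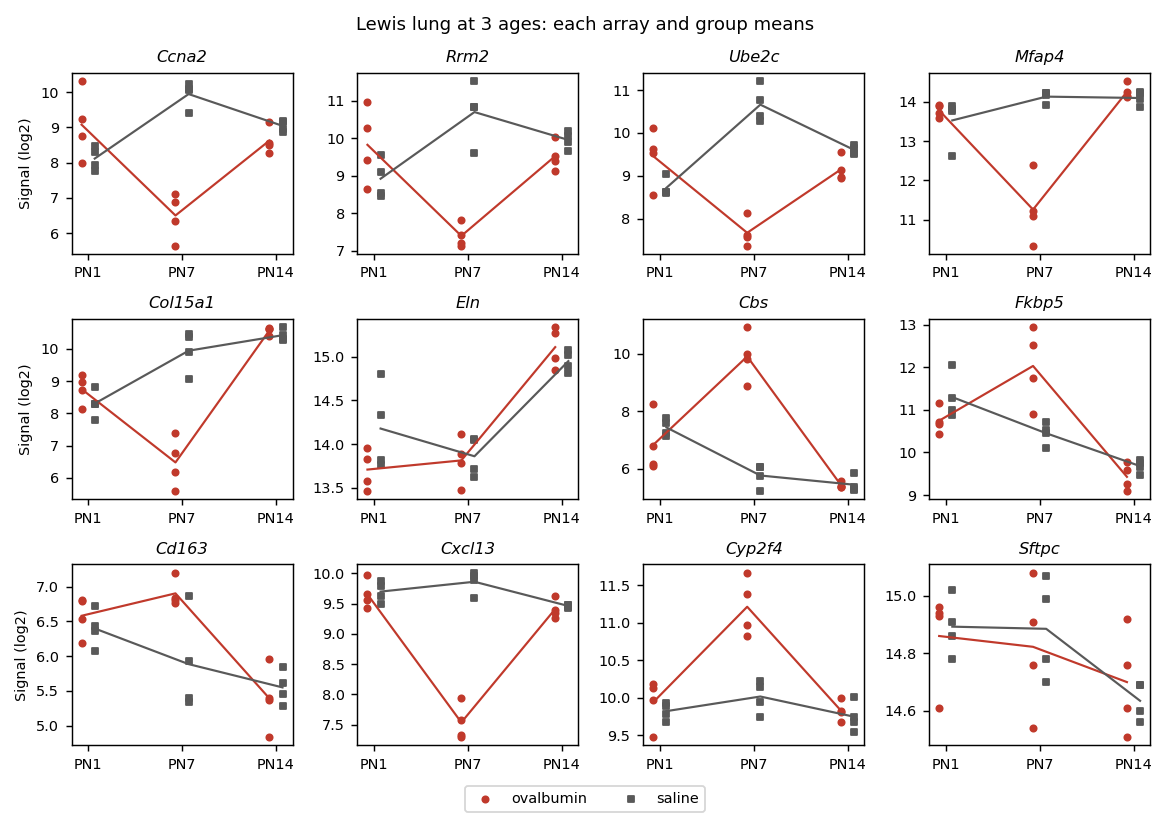
Normalised log2 signal (y axis, a scale of its own in each panel) of 12 genes in Lewis lung at PN1, PN7 and PN14 (x axis), each array as a point with ovalbumin in red and saline in grey, and lines through the group means. At PN7 ovalbumin arrays lie below all saline arrays for Ccna2, Rrm2, Ube2c, Mfap4, Col15a1 and Cxcl13 and above them for Cbs, Fkbp5 and Cyp2f4, while at PN14 the means of these 9 genes lie closer together.

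Set beside the PN1 ovalbumin arrays, with no test of that age, the PN7 values of several genes were the extreme of the 3 ages. After ovalbumin Col15a1 averaged 8.75, 6.48 and 10.57 at PN1, PN7 and PN14, and Ccna2 9.08, 6.50 and 8.62. Fkbp5 averaged 10.75, 12.03 and 9.43 and Cbs 6.83, 9.91 and 5.42. Dlk1 and Igf2 instead declined over the 3 ages, Dlk1 with 12.31, 12.04 and 8.39 and Igf2 with 14.21, 13.24 and 11.50. The PN1 ovalbumin arrays spread widely in summed T cell signal, from 9.92 to 15.16, against 9.72 to 9.83 in Lewis PN1 saline. Their summed mitosis signal ran from 13.08 to 14.31, against 13.22 to 13.46. The part of this spread in the PN1 mean of Ccna2 was not tested.

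The ovalbumin step of Lewis was also set against that of the other strains. Its difference from the Fisher step called 2813 of the 14019 probes (20.1%), 1375 positive and 1438 negative. That from the Brown Norway step called 3294 (23.5%), 1713 positive and 1581 negative. Both comparisons use the same 8 Lewis arrays, and the list counts below are to be read beside these directional counts. For mitosis genes the difference was called and positive for 6 of 19 against Fisher and 19 of 19 against Brown Norway, where the list had a median step of 0.06 and -1.48, beside 1.30 in Lewis. Of 17 collagen and matrix genes 11 were positive against Fisher, and 13 positive and 1 negative against Brown Norway, with median steps of 0.24 in Fisher and 0.11 in Brown Norway. Col15a1 rose by 4.08 in Lewis, while its step was 0.41 in Fisher (difference 3.67 ± 0.41) and 0.11 in Brown Norway. Nell1 and Mfap4 differed from Fisher by 3.39 ± 0.68 and 3.14 ± 0.36, the value of Nell1 being a fitted one from a PN7 group with no array above background. From Brown Norway, Ucp1 differed by 5.48 ± 2.01 (adjusted p = 0.0383, a call lost in 6 of the 8 fits that each left out 1 Lewis array), Car3 by 5.09 ± 0.97 and Pclaf by 4.95 ± 0.67.

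Apoc1, Cbs and Adhfe1 had negative differences in both strains, with Cbs above background on no Lewis PN14 array. Apoc1 differed by -4.49 ± 0.86 from Fisher and -4.34 ± 0.86 from Brown Norway, Cbs by -3.26 ± 0.65 and -4.18 ± 0.65, and Adhfe1 by -3.26 ± 0.49 and -4.06 ± 0.49. Ciliated cell genes had 2 of 15 negative differences from Fisher and 13 from Brown Norway, where the list had a median step of 0.13. Of the lymphocyte lists, 0 of 13 T cell and 0 of 4 B cell genes were called different in either strain, and 1 of 9 cytotoxic and natural killer genes was positive against each, with median steps in T cells of 0.72 in Lewis, 0.78 in Fisher and 0.82 in Brown Norway.

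**Figure D5:**
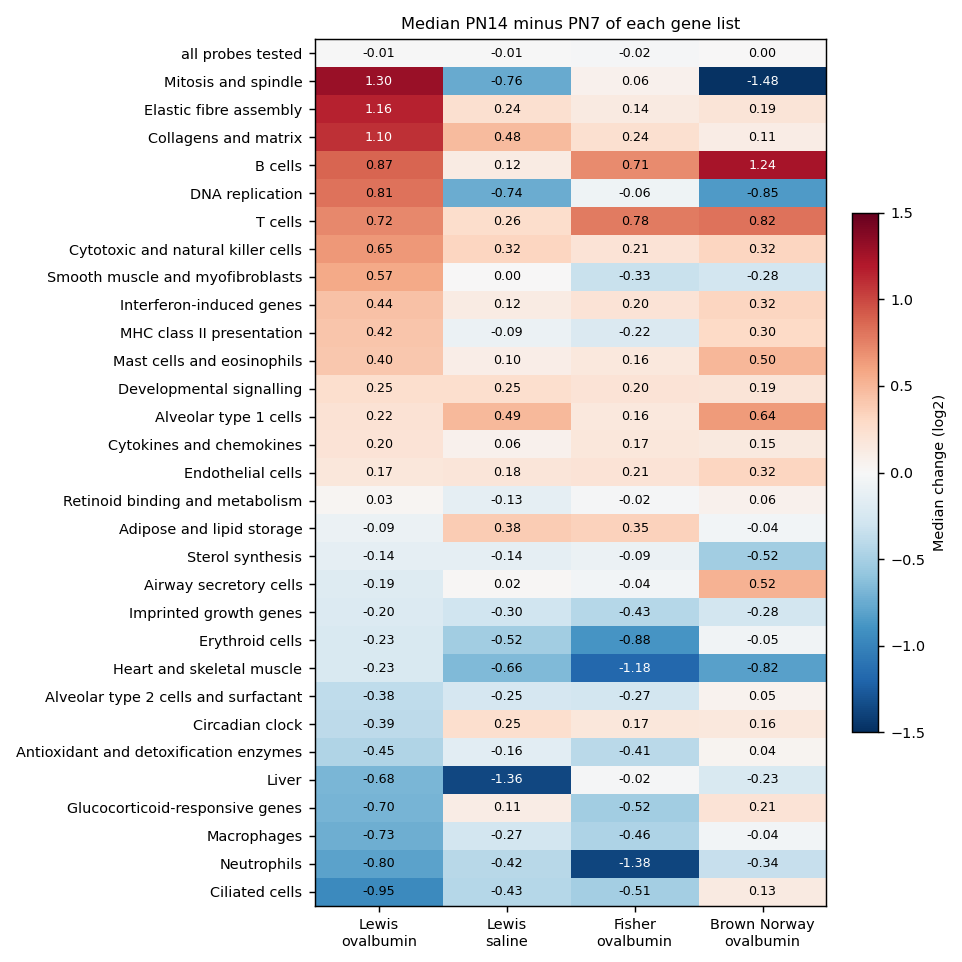
Median PN14 minus PN7 change (log2, colour and printed value) of each gene list in Lewis ovalbumin, Lewis saline, Fisher ovalbumin and Brown Norway ovalbumin lung, ordered by the Lewis ovalbumin median. The mitosis list has 1.30 in Lewis ovalbumin and -0.76, 0.06 and -1.48 in the other columns.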

How the data were processed

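Whole-lung total RNA was isolated with Trizol, treated with DNase and made into biotin-labelled cRNA for Illumina rat bead arrays, per the labels' protocols. The raw bead intensities were deposited by the authors with a detection p-value for each probe and array, per the file headers. The deposited log2 values matched quantile-normalised log2 raw intensity to within 5e-05, and the authors' processing notes name lumi, with no version. Here, the raw intensities were background-corrected and quantile-normalised with neqc of limma 3.58.1 (R 4.3.3, offset 16), and the deposited log2 values served as an alternative.

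The 14019 of 22523 probes with a detection p under 0.01 on at least 3 arrays were tested, 9848 of them with 1 gene symbol and 4171 without. A linear model of 18 group means over all 71 arrays (53 residual degrees of freedom, moderated with a trend) gave each difference, and p-values were adjusted over all probes tested. Differences between steps were interaction terms of that model. The number of arrays limits the precision. The members, the 30 gene lists and the tests were chosen with earlier results of these data known. Named genes are the 16 largest rises and falls among called probes whose groups do not overlap, up to 5 members of lowest p from each list, 8 genes named in any case, and the largest differences between steps. Of those 8 genes the proliferation marker Mki67 had no probe of its symbol among those tested, so no value is given for it. For a gene with several probes the one of highest mean signal was used. Other settings tried were the deposited values, no background correction, other detection filters, slide as a fixed term or random block, the PN7 arrays of each slide alone, only the groups compared, the replicate letter as a block, no trend, and leaving out each array. The method was also tested on simulated data.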

Additional observations from a re-analysis of the deposited data

Results flagged for a closer look

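For 11 of 284 groups of 4 arrays examined, over the named genes at each age, the gap between 1 array and the nearest other exceeded Dixon's critical share of the range, which chance gives in about 1 in 20 groups. At PN14, replicate a was apart for Trim54 (5.29, others 5.54 to 5.57) and Igf2 (11.81, others 11.37 to 11.41), replicate b for Sftpd (10.10, others 10.21 to 10.23) and replicate d for Lpcat1 (12.75, others 12.95 to 12.99). At PN7, replicate a was apart for Cdkn1c (8.50, others 8.15 to 8.19) and Ccr7 (8.34, others 8.49 to 8.51). Replicate b was apart for Slc7a10 (7.14, others 5.84 to 6) and Col3a1 (11.95, others 11.72 to 11.76). Replicate c was apart for Igf2 (13.49, others 13.14 to 13.18), Cd163 (7.20, others 6.77 to 6.83) and Sod3 (8.95, others 9.89 to 10.05).

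The Lewis ovalbumin step differed from the Lewis saline step at 2552 probes, from the Fisher ovalbumin step at 2813 and from the Brown Norway ovalbumin step at 3294, each by the limma interaction term. Against saline the positive differences were 4.03 for Pclaf, 3.87 for Car3, 3.73 for Pbk, 3.60 for Col15a1, 3.60 for Slc7a10 and 3.55 for Crabp1. The negative ones were -4.17 for Cbs, -4.01 for Adhfe1, -3.69 for Esm1, -3.36 for Apoc1, -3 for Cxcl1 and -2.98 for RatNP-3b. Against Fisher they were 3.67 for Col15a1, 3.39 for Nell1, 3.14 for Mfap4, -4.49 for Apoc1, -3.26 for Cbs and -3.26 for Adhfe1. Against Brown Norway they were 5.48 for Ucp1, 5.09 for Car3, 4.95 for Pclaf, -4.34 for Apoc1, -4.18 for Cbs and -4.06 for Adhfe1.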

How the results depend on the processing

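The 4442 calls of the age step became 2710 with the PN7 arrays of slide 4 alone and 3565 with those of slide 2 alone (the cause of that gap was not tested), and 3673 to 4193 with 1 Lewis ovalbumin array left out. The 2552 calls of the difference from saline became 1564 with slide as a fixed term (the cause was not tested), and 1884 to 2608 with 1 such array left out. Leaving out 1 Lewis saline array, an alternative chosen after seeing the data, gave 2073 to 2785. The counts ran from 2136 to 2852 against Fisher and from 2766 to 3270 against Brown Norway with 1 array left out. Of 2698 values of named genes in the age step 2611 kept their direction and side of the threshold, 83 lost their call and 4 turned. Those 4 were Stfa3 with slide as a fixed term (0.18), Hopx with the PN7 arrays of slide 4 alone (0.10) and without 1 array each (-0.21 to 0.01), and Scgb1a1 without 1 array each (-0.08 to 0), and their causes were not tested. Samples were treated as unpaired, and whether the replicate letters pair them cannot be told from these values. Same-lettered arrays had deviations correlated at 0.017, -0.0249, 0.101 and 0.138, with no differently lettered pairs for comparison. A replicate block gave 5266 calls, with the groups compared alone in the fit (5367 without the block). That narrower fit also called more T cell, interferon-induced, clock, erythroid, adipose, muscle and liver genes than the fit to all arrays. Probes near background, such as those of defensins, T cells and Ucp1, have only bounds or wide errors.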
